A study of Mus musculus with 4 samples.

Results

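The exhausted CD8 T cells of orthotopic CT26 tumors were the 2230 cells, of 17674 in the deposited table of cells, that the authors had placed in the cluster CD8_Tex. Of these, 982 came from Cyp51-KO tumors and 1248 from sg-Ctrl tumors. They were set against the cells of the other 3 clusters with CD8 in their name, CD8_Temra, CD8_Teff and CD8_HSP+, which gave 5432 CD8 cells, 2770 from Cyp51-KO and 2662 from sg-Ctrl tumors.

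CT26 is a mouse colorectal cancer cell line. In the Cyp51-KO group the CT26 cells injected into the colon of BALB/c mice had lost Cyp51, a demethylase of the cholesterol synthesis pathway, by CRISPR with a lentiviral vector that also marks them with BFP. In the sg-Ctrl group the CT26 cells carried a control guide in the same vector. The deletion was thus in the cancer cells of the graft and the T cells were the host's own, unedited in both groups. Tumors were taken at day 26, 9 grown from Cyp51-KO cells and 12 grown from sg-Ctrl cells. Bulk CD45+ leukocytes, CD3+ T cells and BFP+ tumor cells were sorted, mixed at 50%, 40% and 10%, and sequenced with a droplet method that reads the 5′ end of transcripts. The number of CD8 cells per tumor is therefore not given by these data, and a share among all cells follows the mix as well as the tumor. Each group was listed with 2 samples, but a cell's name shows its group and not its sample. The cells of a group were therefore taken as 1 sample, and no test was made.

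CD8 T cells kill cancer cells that show them a fitting antigen. Under lasting antigen exposure they pass into an exhausted state, in which they keep inhibitory receptors on their surface and make less cytokine. Among the genes that mark this state are Pdcd1, which encodes the receptor PD-1, Havcr2, which encodes Tim-3, and Lag3, whose product binds MHC class II. Cd8a encodes a chain of the CD8 coreceptor. The table holds the number of unique molecular identifiers (UMIs), the number of genes detected and the mitochondrial percentage of each cell and no level of any single gene, so the name of the cluster could be looked at only through the leading genes the study lists for it. Of the 4 markers, Cd8a and Pdcd1 are on that list, and Havcr2 and Lag3 are not. The list also names Cd3e and Cd3g, CD3 chains of the T cell receptor complex, the second CD8 chain Cd8b1, the cytokine gene Ifng and the cytotoxic granule gene Nkg7. Its remaining names are Cst7, Nrgn and Rgs16. Cd8a, Cd3g and Nrgn stand on the list of CD8_Teff too, and Cd8b1 on that of CD8_Temra. These names alone do not tell exhausted from effector cells, and the name of the cluster is the authors'. No marker was given a level in either group here.

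CD8_Tex cells made up a smaller share of the CD8 cells in Cyp51-KO tumors. The share was 35.5% (95% exact binomial interval 33.7% to 37.3%, 982 of 2770 cells) in Cyp51-KO tumors, compared with 46.9% (45.0% to 48.8%, 1248 of 2662 cells) in sg-Ctrl tumors. The log2 ratio of Cyp51-KO over sg-Ctrl was -0.40, and it lay between -0.54 and -0.27 when opposite bounds of the shares were paired. The intervals did not overlap, and they cover the sampling of cells only, not differences between tumors, sorts or libraries, which cannot be told apart from the knockout here. The difference was not seen on average when cells were matched by their number of UMIs. When the shares were taken within UMI ranges and averaged with the same weights in both groups, the CD8_Tex share was 40.7% (36.8% to 44.7%) in Cyp51-KO tumors, compared with 41.3% (36.9% to 46.0%) in sg-Ctrl tumors (log2 ratio -0.02). The bounds of these averaged shares are averages of the bounds of the ranges, not 95% intervals. With only the cells of 4000 to 16000 UMIs, counted together without matching inside this span, the log2 ratio was 0.03. Both values combine UMI ranges in which the share differed in opposite directions, given further on.

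The other CD8 clusters took up the difference unequally. CD8_Teff cells, by their name the effector cells, were 15.0% (13.7% to 16.4%) of the CD8 cells in Cyp51-KO tumors, compared with 8.0% (7.0% to 9.1%) in sg-Ctrl tumors (log2 ratio 0.91). CD8_Temra cells made up 47.9% (46.0% to 49.8%) in Cyp51-KO, against 43.3% (41.4% to 45.2%) in sg-Ctrl, a log2 ratio of 0.15. CD8_HSP+ cells were few in both groups, 45 in Cyp51-KO tumors, compared with 48 in sg-Ctrl tumors, and their shares of 1.62% in Cyp51-KO and 1.80% in sg-Ctrl had overlapping intervals. These 4 shares add up to the whole in each group, so they cannot move one by one.

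**Figure D1:**
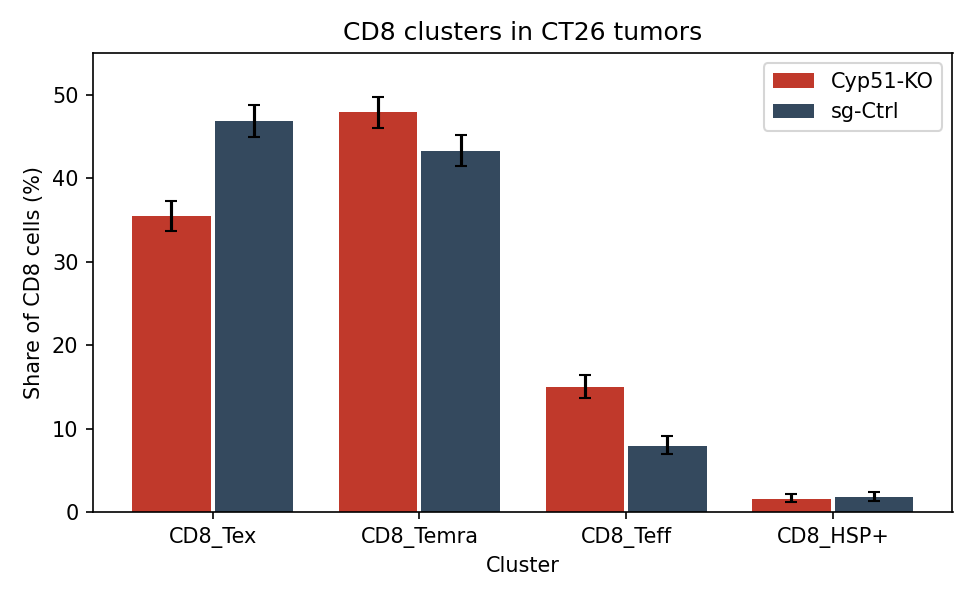
Share of the CD8 cells of Cyp51-KO and sg-Ctrl tumors that fell in each of the 4 CD8 clusters (%). Bars are shares over 2770 Cyp51-KO and 2662 sg-Ctrl cells, and whiskers are exact 95% binomial intervals. The CD8_Tex bar is lower in Cyp51-KO tumors and the CD8_Teff and CD8_Temra bars are higher.

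A ratio of 2 clusters does not depend on the other clusters counted. There were 2.36 (2.10 to 2.65) CD8_Tex cells per CD8_Teff cell in Cyp51-KO tumors, compared with 5.86 (5.06 to 6.81) in sg-Ctrl tumors (log2 ratio -1.31). Per CD8_Temra cell there were 0.740 (0.681 to 0.804) in Cyp51-KO tumors, compared with 1.08 (0.998 to 1.17) in sg-Ctrl tumors (log2 ratio -0.55). CD8_Tex cells were thus fewer than CD8_Temra cells in Cyp51-KO tumors, while in sg-Ctrl tumors the interval held 1, the value of equal numbers. Counted per cell of each of the other 19 clusters, CD8_Tex cells were fewer in Cyp51-KO tumors in all 19 ratios, with intervals apart in 18, the exception being CD8_HSP+ (21.8 per cell in Cyp51-KO and 26 in sg-Ctrl, log2 ratio -0.25).

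Among the lymphocytes the ratios ran from -1.99 to -0.25. They were -0.57 per regulatory T cell (3.22 in Cyp51-KO tumors, compared with 4.76 in sg-Ctrl tumors), -0.51 per Th1-like cell (1.46 in Cyp51-KO, 2.07 in sg-Ctrl) and -0.86 per Th17 cell (5.11 in Cyp51-KO, 9.31 in sg-Ctrl). Per proliferating T cell, a cluster that may hold dividing CD8 cells, there were 1.85 CD8_Tex cells in Cyp51-KO tumors, compared with 3.22 in sg-Ctrl tumors (log2 ratio -0.80). The ratio to plasma cells, the lowest among lymphocytes, rested on 50 plasma cells in Cyp51-KO tumors, compared with 16 in sg-Ctrl tumors. Per malignant cell there were 0.404 CD8_Tex cells in Cyp51-KO tumors, compared with 1.71 in sg-Ctrl tumors (-2.08). Malignant cells were 23.2% (22.4% to 24.0%) of all cells in Cyp51-KO tumors, compared with 10.1% (9.45% to 10.9%) in sg-Ctrl tumors, although the tumor cell sort had been added at 10% in both groups, so this ratio and any share among all cells move with the recovered mix. By the design, T cells came from the bulk CD45+ sort and from the added CD3+ sort, and other leukocytes from the bulk sort only. The ratios to leukocyte clusters other than T cells therefore also move with the mix. All these ratios share the same CD8_Tex cells and are not separate observations.

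**Figure D2:**
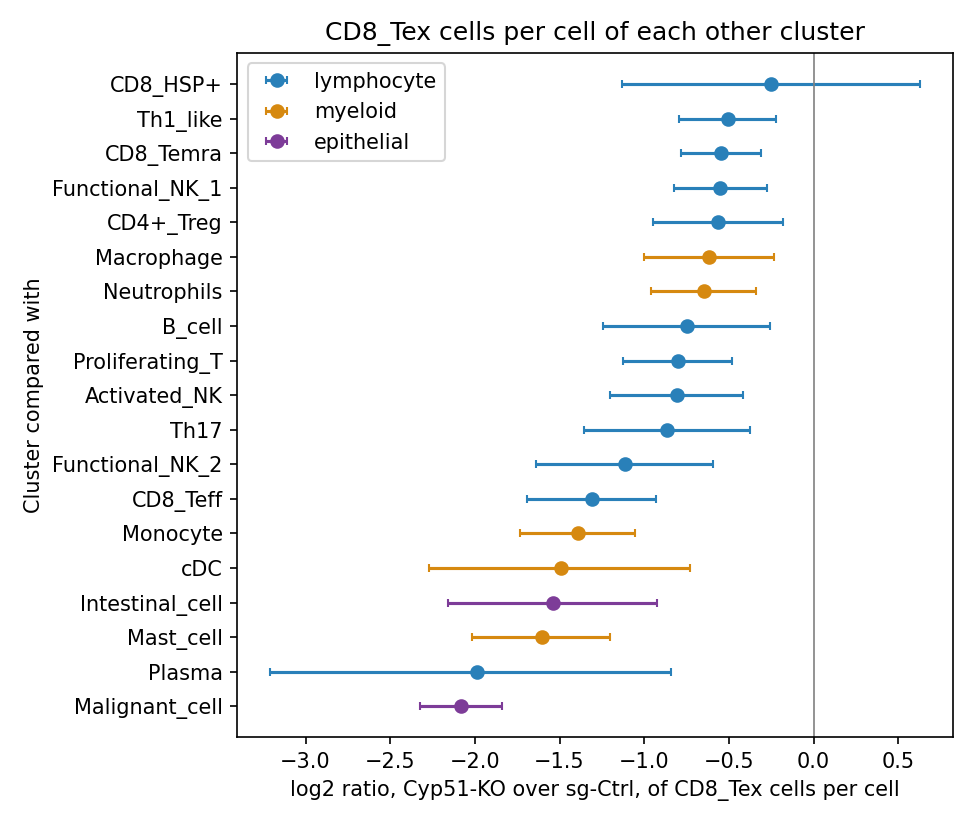
Log2 ratio, Cyp51-KO over sg-Ctrl tumors, of the number of CD8_Tex cells per cell of each of the other 19 clusters, colored by compartment. Bars set the lower bound of one ratio against the upper bound of the other. All points lie below 0, and only the bar of CD8_HSP+ crosses it.

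CD8_Tex cells of Cyp51-KO tumors held fewer UMIs. The median was 5496 (5246 to 5775) UMIs per cell in Cyp51-KO tumors, compared with 8568.5 (8335 to 8798) in sg-Ctrl tumors (log2 ratio -0.64). The gap was widest among the cells with few UMIs. At the 10th percentile the values were 2646.2 in Cyp51-KO tumors, compared with 4917.7 in sg-Ctrl tumors (log2 ratio -0.89), and at the 90th percentile 11649.5 in Cyp51-KO and 15268.4 in sg-Ctrl (-0.39). The cells of Cyp51-KO tumors were thus also more unequal, with a 90th percentile 4.40 times the 10th, against 3.10 times in sg-Ctrl tumors. Under 4000 UMIs lay 28.2% (25.4% to 31.1%) of the CD8_Tex cells of Cyp51-KO tumors and 4.89% (3.76% to 6.23%) of those of sg-Ctrl tumors. The part with 8000 UMIs or more was 23.0% in Cyp51-KO tumors, compared with 57.0% in sg-Ctrl tumors. The ranges still overlapped almost fully, from 582 to 36830 UMIs in Cyp51-KO tumors and between 504 and 45680 in sg-Ctrl tumors.

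This lower UMI number was not particular to CD8_Tex. All 13 lymphocyte clusters had a lower median in Cyp51-KO tumors, and the change in CD8_Tex was the 9th lowest of the 13. Among the CD8 cells, the log2 ratio was -1.02 in CD8_Temra (3005 UMIs in Cyp51-KO tumors, compared with 6112 in sg-Ctrl tumors), -0.52 in CD8_Teff (8245 in Cyp51-KO, 11833 in sg-Ctrl) and -0.63 in CD8_HSP+ (3680 in Cyp51-KO, 5679.5 in sg-Ctrl). CD8_Temra was thus shifted further than CD8_Tex. With 1 sample per group, the depth of the libraries and the RNA content of the cells cannot be told apart.

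**Figure D3:**
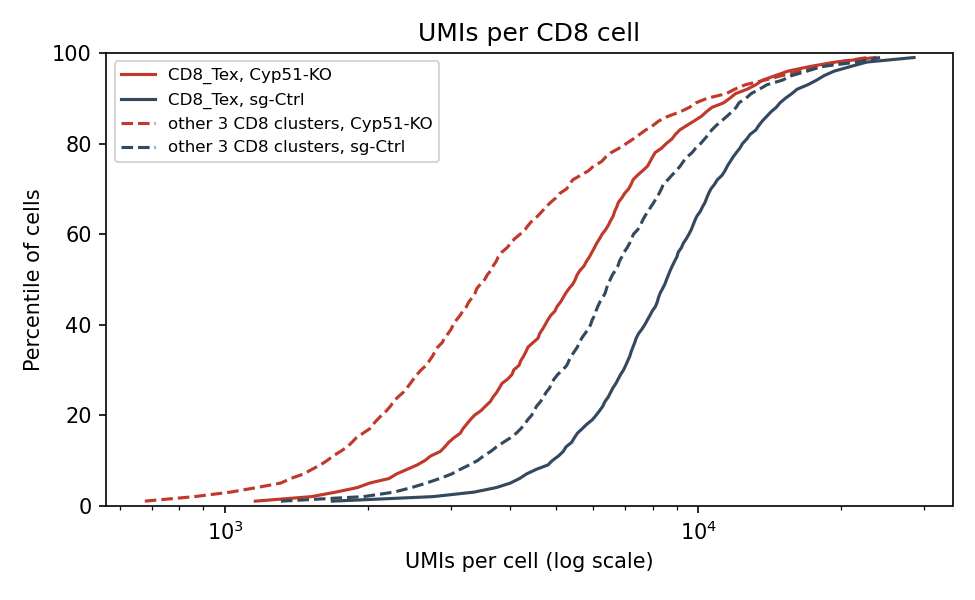
Percentile of cells against UMIs per cell (log scale), for CD8_Tex (solid) and the other 3 CD8 clusters together (dashed), with Cyp51-KO and sg-Ctrl tumors in separate colors. The Cyp51-KO curves lie left of the sg-Ctrl curves and approach them at the high end, and in each group the CD8_Tex curve lies right of that of the other CD8 cells for most percentiles.

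Set against the other CD8 cells of their own group, which share the sort and the sequencing, CD8_Tex cells held more UMIs in both groups. The log2 ratio of CD8_Tex over the other 3 clusters was 0.64 (0.52 to 0.77) in Cyp51-KO tumors, compared with 0.40 (0.31 to 0.47) in sg-Ctrl tumors. They stood above CD8_Temra (0.87 in Cyp51-KO tumors, compared with 0.49 in sg-Ctrl tumors) and below CD8_Teff (-0.59 in Cyp51-KO, -0.47 in sg-Ctrl). They also stood below the proliferating T cells, with a log2 ratio of -1.16 in Cyp51-KO tumors, compared with -0.99 in sg-Ctrl tumors. The order CD8_Teff, CD8_Tex, CD8_Temra was the same in both groups. Each cell was also ranked by UMIs among the CD8 cells of its own group. The median CD8_Tex cell stood at percentile 64.4 in Cyp51-KO tumors, compared with 61.5 in sg-Ctrl tumors. This percentile also depends on the shares of the clusters ranked, which differed between the groups.

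Since the 4 clusters differed in UMIs per cell, the share of CD8_Tex was taken again at equal UMIs. It turned direction along the UMI scale. From 1000 to 2000 UMIs the CD8_Tex share was 14.3% in Cyp51-KO tumors (42 of 293 CD8 cells), compared with 34.3% in sg-Ctrl tumors (12 of 35 cells), a log2 ratio of -1.26. From 2000 to 4000 UMIs it was 23.7% in Cyp51-KO tumors, compared with 20.2% in sg-Ctrl tumors, with overlapping intervals. From 4000 to 8000 UMIs, the range with the most CD8_Tex cells of Cyp51-KO tumors, it was higher in Cyp51-KO, at 50.7% (47.5% to 54.0%, 479 of 944 cells), than in sg-Ctrl tumors, at 39.5% (36.7% to 42.3%, 476 of 1206 cells). From 8000 to 16000 UMIs it was lower again, at 47.6% (190 of 399 cells) in Cyp51-KO tumors, compared with 60.0% (608 of 1013 cells) in sg-Ctrl tumors. From 16000 to 32000 UMIs it was 31.5% (34 of 108 cells) in Cyp51-KO tumors, compared with 60% (96 of 160 cells) in sg-Ctrl tumors. The intervals lay apart in these last 3 ranges and, barely, from 1000 to 2000 UMIs. There the upper bound was 18.9% in Cyp51-KO tumors and the lower bound 19.1% in sg-Ctrl tumors.

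In the ranges from 4000 UMIs upward, the other large CD8 clusters lay on opposite sides. From 4000 to 8000 UMIs CD8_Temra cells were 31.4% of the CD8 cells in Cyp51-KO tumors, compared with 55.8% in sg-Ctrl tumors, and CD8_Teff cells made up 16.5% in Cyp51-KO, against 2.99% in sg-Ctrl. From 8000 to 16000 UMIs CD8_Temra cells were 14.8% in Cyp51-KO tumors, compared with 26.8% in sg-Ctrl tumors, and CD8_Teff cells made up 36.1% in Cyp51-KO, against 12.1% in sg-Ctrl. Below 4000 UMIs, CD8_Tex cells were not counted per CD8_Teff cell. In sg-Ctrl tumors there was 1 CD8_Teff cell from 1000 to 2000 UMIs and 1 from 2000 to 4000 UMIs. The CD8_Teff shares had overlapping intervals in both ranges. The number of CD8_Tex cells per CD8_Teff cell was lower in Cyp51-KO tumors in all 3 ranges from 4000 to 32000 UMIs, with intervals apart. It was 3.07 in Cyp51-KO tumors, compared with 13.2 in sg-Ctrl tumors from 4000 to 8000 UMIs (log2 ratio -2.11), 1.32 in Cyp51-KO and 4.94 in sg-Ctrl from 8000 to 16000 UMIs (-1.91), and 0.479 in Cyp51-KO and 2 in sg-Ctrl from 16000 to 32000 UMIs (-2.06). The number of CD8_Tex cells per CD8_Temra cell went the other way from 4000 to 8000 UMIs, at 1.62 in Cyp51-KO tumors, compared with 0.707 in sg-Ctrl tumors (1.19), against a lower ratio in Cyp51-KO tumors when all CD8 cells were counted. In the other 4 ranges the intervals of this ratio overlapped. From 1000 to 2000 UMIs they did so barely, at 0.177 (0.124 to 0.247) in Cyp51-KO tumors, compared with 0.545 (0.246 to 1.15) in sg-Ctrl tumors (-1.62). That sg-Ctrl value rested on 12 CD8_Tex and 22 CD8_Temra cells. The log2 ratios of the remaining ranges were above 0, at 0.28 from 2000 to 4000 UMIs, 0.52 from 8000 to 16000 UMIs and 0.62 from 16000 to 32000 UMIs. Within UMI ranges, then, CD8_Tex cells were fewer per CD8_Teff cell in Cyp51-KO tumors in all 3 ranges compared. Per CD8_Temra cell, no range had fewer of them in Cyp51-KO tumors with intervals apart, though from 1000 to 2000 UMIs the intervals barely overlapped.

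**Figure D4:**
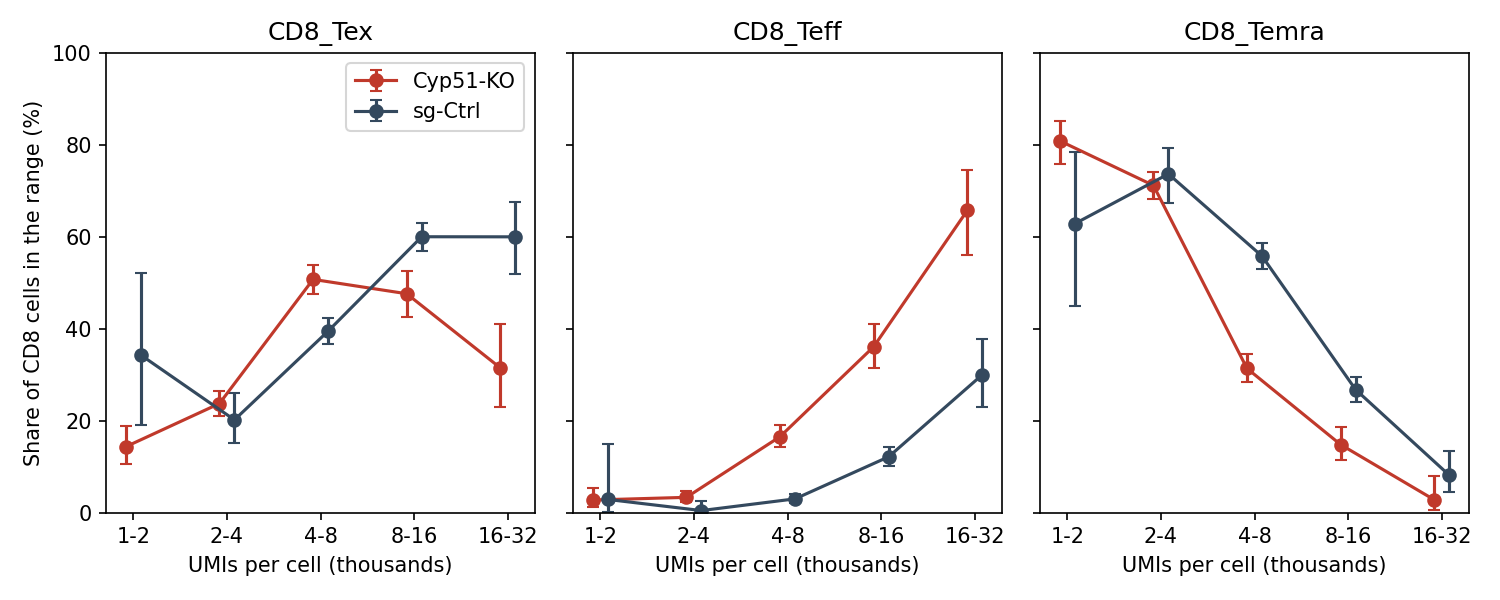
Share of CD8_Tex, CD8_Teff and CD8_Temra among the CD8 cells of each UMI range (%), in Cyp51-KO and sg-Ctrl tumors. Points are shares, whiskers are exact 95% binomial intervals, and ranges run from 1000 to 32000 UMIs. The CD8_Tex curves cross, while from 4000 UMIs upward CD8_Teff is higher and CD8_Temra lower in Cyp51-KO tumors, the last with overlapping intervals from 16000 UMIs.

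Equal UMIs need not mean equal cells, because the same UMI number lies at a different place in each group. The CD8 cells of each group were therefore also ordered by UMIs and cut into 4 parts of equal size. In the part with the fewest UMIs, CD8_Tex cells were 15.8% in Cyp51-KO tumors, compared with 28.0% in sg-Ctrl tumors (log2 ratio -0.83). In the next part they made up 29.3% in Cyp51-KO, against 42.6% in sg-Ctrl (-0.54). In the third part they were 50.9% in Cyp51-KO tumors, compared with 56.2% in sg-Ctrl tumors, with overlapping intervals. In the part with the most UMIs they made up 45.9% in Cyp51-KO, against 60.7% in sg-Ctrl (-0.40). By place within the own group, the share was lower in Cyp51-KO tumors in all 4 parts, with overlapping intervals in the third. Since the parts are of equal size, their mean is the share among all CD8 cells of the group. This split could therefore show where along the UMI order the difference lay, but could not have removed it. By UMI number the direction differed between ranges. These data do not tell which cells of the groups are alike, and the part of the UMI number in the share was not tested further.

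CD8_Tex cells of Cyp51-KO tumors also had fewer genes detected. The median was 1851 (1810 to 1892) genes in Cyp51-KO tumors, compared with 2624 (2573 to 2670) in sg-Ctrl tumors (log2 ratio -0.50). Most of this gap went with the UMIs. At 2000 to 4000 UMIs the medians were 1306 genes in Cyp51-KO tumors, compared with 1414.5 in sg-Ctrl tumors (log2 ratio -0.12), at 4000 to 8000 UMIs 1884 in Cyp51-KO and 2217 in sg-Ctrl (-0.23), and at 8000 to 16000 UMIs 2691 in Cyp51-KO and 2948.5 in sg-Ctrl (-0.13). At 16000 to 32000 UMIs the medians reached 3946.5 in Cyp51-KO, against 4197.5 in sg-Ctrl, with overlapping intervals. The mean over the 4 ranges was -0.14, and the means of their lower and upper bounds were -0.22 and -0.05. Within a range the UMIs were not quite equal, with medians of 5697 in Cyp51-KO tumors, compared with 6447.5 in sg-Ctrl tumors from 4000 to 8000 UMIs. From 8000 to 16000 UMIs, where the log2 ratio was -0.13, they were 10289.5 in Cyp51-KO tumors, compared with 10364 in sg-Ctrl tumors. A single line of log2 genes on log2 UMIs through the CD8_Tex cells of both groups left a difference of -0.09 (-0.11 to -0.07), or 0.94 times as many genes. This line had no term for the group, so its slope can take up part of a gap between groups that differ in UMIs. The same kind of line, with the same limit, left -0.06 in CD8_Temra and -0.09 in CD8_Teff. By this measure a gap of this size was not particular to CD8_Tex.

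The mitochondrial percentage was lower in CD8_Tex cells of Cyp51-KO tumors, and this held within UMI ranges. The median was 0.926% (0.90% to 0.95%) in Cyp51-KO tumors, compared with 1.20% (1.17% to 1.22%) in sg-Ctrl tumors (log2 ratio -0.37). In all 4 UMI ranges the intervals lay apart, with medians of 0.941% in Cyp51-KO tumors, compared with 1.30% in sg-Ctrl tumors at 2000 to 4000 UMIs and of 0.977% in Cyp51-KO and 1.12% in sg-Ctrl at 16000 to 32000 UMIs. In this last range they were barely apart. The upper bound was 1.055% in Cyp51-KO tumors (34 cells) and the lower bound 1.057% in sg-Ctrl tumors (96 cells). In UMIs the median cell had 51 of mitochondrial genes in Cyp51-KO tumors, compared with 105 in sg-Ctrl tumors. The log2 ratio was also below 0 in the other CD8 clusters, at -0.39 in CD8_Temra, -0.44 in CD8_Teff and -0.78 in CD8_HSP+. Within a group CD8_Tex differed little from the other 3 clusters together, with a log2 ratio of 0.08 in Cyp51-KO tumors, compared with 0.03 in sg-Ctrl tumors. Cells with over 2.5% were rare, 2 of 982 in Cyp51-KO tumors, compared with 4 of 1248 in sg-Ctrl tumors.

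**Figure D5:**
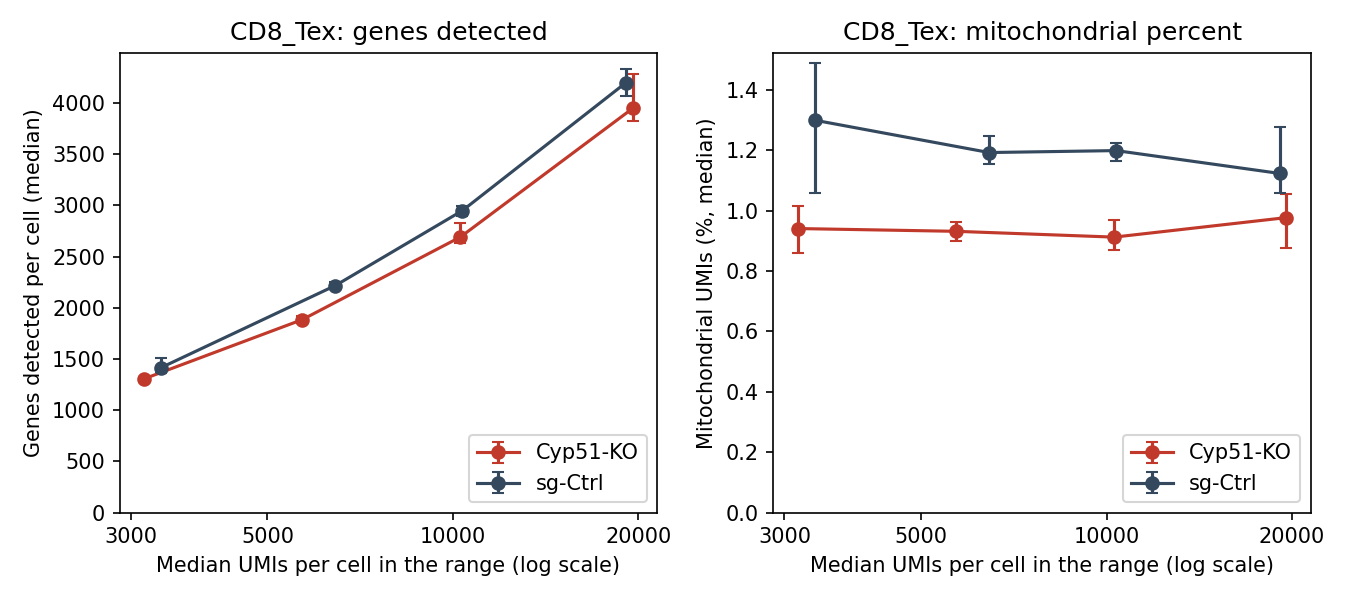
Median genes detected (left) and median mitochondrial percentage (right) of CD8_Tex cells in 4 UMI ranges, against the median UMIs of the cells in the range (log scale), in Cyp51-KO and sg-Ctrl tumors. Whiskers are exact 95% intervals of the median. Genes climb with UMIs along lines that lie close together, with Cyp51-KO slightly lower, whereas the mitochondrial percentage is lower in Cyp51-KO tumors at each depth.

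Doublets could not be looked for without the levels of genes. CD8_Tex cells with over 2 times the median UMIs of their group were 11.4% (9.48% to 13.6%) in Cyp51-KO tumors, compared with 6.73% (5.40% to 8.27%) in sg-Ctrl tumors. This limit lay at fewer UMIs in Cyp51-KO tumors, whose cells were also more unequal in UMIs, so these percentages do not count doublets. Of the droplet barcodes, 98 occurred in both groups, in 196 cells. Of these cells 21 were CD8_Tex, next to 2230 of 17674 cells in the whole series. No shared barcode was annotated CD8_Tex in both groups, and no barcode was repeated inside a group.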

How the data were processed

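Cells of Cyp51-KO and sg-Ctrl CT26 tumors were analysed as 1 sample per group, since the cell names carry the group and no library. The table calls the groups CYP51KO and WT, and WT was read as sg-Ctrl, the only other group of the labels. Per the submitters' processing notes, Cell Ranger 7.0, GRCm38, R 4.2.0 and Seurat 4.2.0 were used. According to the paper's methods, the authors filtered cells by genes, UMIs and mitochondrial percent, merged all samples, normalized with SCTransform while regressing out the mitochondrial percent, and clustered and named the cells. The deposited table holds, per cell, raw counts of UMIs, the number of genes detected, the percent of mitochondrial UMIs computed by the authors, and the number of genes after SCTransform, a deposited score used only as an alternative. In the table, UMIs ran from 500 to 99951, genes from 226 to 6998 and the mitochondrial percent up to 4.98. The table has 1 further column of values, the normalized totals, which was not used. The total was 156168274 UMIs in 10484 Cyp51-KO cells and 95249095 in 7190 sg-Ctrl cells.

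The 95% intervals of shares are exact binomial ones (Clopper-Pearson) and those of medians come from the ordered cells, both checked on simulated data. Both cover counting error only. Bounds given with a mean over UMI ranges are means of the bounds of the ranges and are not 95% intervals. A log2 ratio is Cyp51-KO over sg-Ctrl. Without the gene matrix, cells could not be thinned to equal UMIs, so UMI ranges whose upper bound is 2 times the lower were used, with at least 20 CD8 cells, or cells of the cluster described, in both groups. This left out CD8 cells under 1000 or from 32000 UMIs. A ratio of CD8_Tex to another cluster was also not taken in a range where a group had very few cells of either. A permutation test over libraries, planned in case cells could be tied to them, was not applicable. The table gives no gene a value, so genes are named only as markers or background. No doublet caller was run here, and the authors' treatment of doublets was not given in the sources used here. The members, lists and comparisons were chosen with earlier results of these data known. The split into 4 parts by UMIs, the ratios per cell of another cluster and the lines of genes on UMIs in the other CD8 clusters were chosen after the data were seen. Alternatives were other denominators, limits on UMIs and mitochondrial percent, other centres and UMI matching. Python 3.11.15 was used with pandas 2.3.3, NumPy 2.4.6, SciPy 1.17.1 and Matplotlib 3.10.9.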

Additional observations from a re-analysis of the deposited data

Results flagged for a closer look

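The share of CD8_Tex among the CD8 cells differed in direction between UMI ranges. Its log2 ratio of Cyp51-KO over sg-Ctrl was -1.26 from 1000 to 2000 UMIs, 0.36 from 4000 to 8000, -0.33 from 8000 to 16000 and -0.93 from 16000 to 32000, each with intervals of the 2 groups that did not overlap. The range from 1000 to 2000 UMIs held 35 CD8 cells of sg-Ctrl tumors, and its intervals were barely apart. Within the CD8 cells as a whole, the log2 ratios of the shares with intervals apart were -0.40 for CD8_Tex, 0.15 for CD8_Temra and 0.91 for CD8_Teff, 3 values that share 1 denominator. None of these differences was tested, since each group is 1 sample.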

How the results depend on the processing

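Of 42 alternatives over 8 results, 30 left the value within the interval it had, 9 moved it and 3 turned its sign. The log2 ratio of the CD8_Tex share kept its sign in 16 of 17 alternatives, and 11 left it within its interval. Some alternatives left out few cells and could hardly turn the sign. The same UMI weights kept the sign at only -0.0212, with little of the difference left. Among the CD8 cells the log2 ratio of the share was -0.40, and it was -0.54 among lymphocytes, -0.65 among immune cells and -0.89 among all cells. The shares among lymphocytes, immune cells and all cells also move with the sorted mix. The log2 ratio among the CD8 cells was 0.0282 with UMIs from 4000 to 16000 only and -0.0212 with the same UMI weights. With the CD8 cells up to the UMI median of their own group, a setting chosen after the data were seen, it was -0.65. The log2 ratio of genes at equal UMIs was -0.14. With the genes left after SCTransform, chosen after the data were seen, it was -0.15 in the same UMI ranges and -0.49 without them. The UMIs of CD8_Tex over another CD8 cluster depended on which: over CD8_Temra the log2 ratio was 0.87 in Cyp51-KO tumors, compared with 0.49 in sg-Ctrl tumors, over CD8_Teff -0.59 in Cyp51-KO and -0.47 in sg-Ctrl, and over CD8_HSP+ in sg-Ctrl tumors 0.59. The cells above that median and the removal of barcodes found in both groups were also settings of this kind. No paired analysis was possible because a cell's name gives no sample, and leaving out each library was not run for the same reason. Few sg-Ctrl cells had low UMIs, with 35 CD8 cells from 1000 to 2000 UMIs and 10 under 1000, so shares there have wide intervals or were not compared.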
